A study of Mus musculus with 19 samples.

Results

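The plasminogen activator system was examined through 8 genes, taken by name from 24689 genes listed in the table of expression values: *Plau*, *Plat*, *Plaur*, *Anxa2*, *S100a10*, *Serpinb2*, *Serpine2* and *Serpinb5*. All 8 were listed and all 8 passed the filter on low values, as did 22745 genes in all. The study asked how YAP activation and the E6-E7 oncoproteins of a papillomavirus, alone and together, change the epithelium of the mouse tongue. Bulk sequencing of polyA RNA was done on tongue epithelium from 19 mice, 15 days after the transgenes were switched on.

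The 5 E mice carried *Krt14-CreERT*, *LSL-rtTA* and *tetON_E6-E7*. The 3 Y mice carried *Krt14-CreERT*, *LSL-rtTA* and *tetON_YAP1S127A*, a form of YAP1 that escapes inhibition by the Hippo kinases. The 6 EY mice carried *Krt14-CreERT*, *LSL-rtTA* and both effector transgenes. Of the 5 control mice, called N, mice 1 to 3 carried *Krt14-CreERT* and *LSL-rtTA*, mouse 4 carried *LSL-rtTA*, and mouse 5 carried *Krt14-CreERT* with both effector transgenes but no *LSL-rtTA*. In the study's design every line also bore a *tetON_H2B-GFP* reporter, and mice were littermates aged 8 to 16 weeks in groups balanced for age and sex. Tamoxifen was injected into the tongue to free rtTA in cells with an active *Krt14* promoter, which is a basal cell promoter, and doxycycline chow then switched on the tetON transgenes. The transgenes were thus started in basal keratinocytes of adult animals, and the epithelium was freed from the muscle with collagenase and dispase and by dissection, so that other cells could come with it. Keratinocyte markers were present in every mouse, with *Krt14* at a mean of 6048 TPM and *Krt13* at 71112 TPM in N epithelia.

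Plasminogen is a circulating zymogen that is cut to plasmin, a protease with a wide range that degrades fibrin, activates other proteases and releases growth factors from the matrix. The cut is made by urokinase, encoded by *Plau*, or by tissue plasminogen activator, encoded by *Plat*. Both work best on a surface, where the urokinase receptor holds urokinase and the annexin A2 complex holds plasminogen and tissue activator, while inhibitors of the serpin family trap the activators. In stratified epithelium the urokinase system is known for its part in wound closure, when keratinocytes at the wound edge migrate.

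Values are in transcripts per 1000000 (TPM), which correct for the length of a gene and sum to 1000000 in each mouse. The values of 24680 genes with any signal resolved into whole reads, and these summed to between 8269674 and 11007304 reads per mouse, with group medians of 9637779 (N), 8848776 (E), 8679053 (Y) and 9448942 (EY). Behind the lowest members were few reads, between 10 and 633 per mouse for *Plaur*, 11 and 956 for *Plat* and 7 and 395 for *Serpine2*. Differences are log2 fold changes of TPM + 0.1, which understate the change of low genes, with a standard error (SE). A gene is said to have risen or fallen, or to be called, where limma gave an adjusted p below 0.01 over all genes tested and a log2 fold change beyond 1 in either direction. The comparisons of EY, Y and E with N share the same 5 N mice, so that their values are not independent of each other.

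*Plau* encodes urokinase, a secreted serine protease. It was at 30.6, 19.3, 12.8, 19.8 and 17.0 TPM in N mice 1 to 5, and at 28.6, 25.7, 22.7, 21.3 and 33.7 TPM in E mice 1 to 5. In Y mice 1 to 3 it was at 27.0, 18.8 and 33.9 TPM, and in the 6 EY mice it ranged from 19.1 to 61.5 TPM with a median of 40.3 TPM. EY mice 1, 2 and 4 were above every other mouse at 59.1, 49.1 and 61.5 TPM, while EY mice 3 and 5, at 19.1 and 19.4 TPM, lay within the N range. Against N the difference in EY epithelia was 0.90 (SE 0.31, limma adjusted p = 0.0274), which was not a call. It became one without EY mouse 3 (1.08, adjusted p = 0.00771) or without EY mouse 5 (1.08, adjusted p = 0.00814), and was not one without any other single mouse. The differences in Y (0.43, SE 0.38, adjusted p = 0.495) and E epithelia (0.44, SE 0.33, adjusted p = 0.605) were close to their errors. Bulk RNA cannot tell fewer cells of a type from less RNA per cell, here or for any gene that follows.

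*Plat* encodes tissue plasminogen activator, which is activated on fibrin and on cell surfaces. Its level was 1.79, 0.397, 0.280, 0.274 and 0.464 TPM in N mice 1 to 5, and 0.894, 1.93, 1.47, 0.426 and 1.12 TPM in E mice 1 to 5. The Y mice had 10.3, 3.19 and 5.51 TPM, and the EY mice between 6.31 and 24.5 TPM with a median of 19.1 TPM. Every Y and EY mouse was above every N and E mouse, and the Y and EY ranges overlapped. N mouse 1 stood above the other N mice, with 79 reads against 11 to 21. *Plat* rose by 4.69 in EY (SE 0.49, 95% interval 3.66 to 5.72, limma adjusted p = 6.11e-07), a 25.8-fold change, and by 3.28 in Y epithelia (SE 0.59, adjusted p = 0.00104). Under the alternative settings the difference ran from 3.39 to 4.96 in EY, always a call, and from 2.11 to 3.53 in Y. In E epithelia the difference was 0.95 (SE 0.51, adjusted p = 0.419). The call in Y was lost when only the 3 N mice with both regulatory transgenes were used (3.02, adjusted p = 0.0106) or only the N and Y mice were fitted (adjusted p = 0.0177). Median levels of the activators thus lay far apart in N epithelia, at 19.3 TPM for *Plau* and 0.397 TPM for *Plat*, and closer together in EY epithelia, at 40.3 and 19.1 TPM.

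*Plaur* encodes the urokinase receptor, a protein anchored to the cell surface by a lipid, which binds urokinase and the matrix protein vitronectin. It was at 1.86, 0.739, 1.28, 0.365 and 0.411 TPM in N mice 1 to 5, and at 0.731, 2.21, 1.71, 0.744 and 1.35 TPM in E mice 1 to 5. Levels in the Y mice were 4.60, 4.05 and 6.59 TPM, and in EY mice they ran from 7.41 to 30.1 TPM with a median of 14.5 TPM. The N and E ranges overlapped, every Y mouse was above them, and every EY mouse was above every Y mouse. *Plaur* rose by 4.07 in EY (SE 0.42, 95% interval 3.19 to 4.95, limma adjusted p = 5.08e-07) and by 2.52 in Y epithelia (SE 0.50, adjusted p = 0.00234), while E differed by 0.60 (SE 0.43, adjusted p = 0.603). The difference in E ran from 0.02 to 0.67 under the alternative settings and from 0.36 to 0.88 without 1 mouse, never a call. The step from Y to EY was 1.55 (SE 0.49, unadjusted p = 0.00537, limma adjusted p = 0.0564), higher in 6 of 6 EY mice but not a call. The corresponding step for *Plat* was 1.41 (SE 0.57, limma adjusted p = 0.137). The call of *Plaur* in Y was lost without Y mouse 3 (2.32, adjusted p = 0.0196), with the 3 N mice that have both regulatory transgenes (1.95, adjusted p = 0.0204) and with the N and Y mice alone (adjusted p = 0.0234). It was also lost with the mouse number as a block (2.33, limma adjusted p = 0.0201).

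Promoters that held a motif are shown so that their sequences can be read beside the values of their genes, of which *Plaur*, *Anxa2* and *Serpinb2* rose in Y and EY and *Serpinb5* did not. RefSeq promoters on GRCm38.p6, from 250 bases before to 50 bases after the start, were matched by symbol for 5 of the 8 members in 6 windows; *Plau*, *Plat* and *S100a10* had no entry. Each window was searched on both strands for GGAATG, the core of the motif of TEAD factors, which YAP binds, and for TGANTCA, a loose form of the motif of AP-1 in which N is any base. Of 32851 promoters of the same length, 14.7% held GGAATG and 7.81% held TGANTCA. The sequence GGAATG was in none of the 6 windows, where at that share few would hold it. The study mapped YAP binding in cultured cells and found many sites far from gene starts, which these windows do not reach. The absence therefore says nothing about sites elsewhere. TGANTCA was in 5 of them, once each and printed in capitals, at 69 bases before the start in *Plaur*, 95 in *Anxa2*, 94 in *Serpinb2* and 140 in *Serpinb5*; a second *Serpinb2* window held the same site at 181 bases before its own start. The letters matched were TGACTCA in *Plaur*, TGAGTCA in *Anxa2* and TGAATCA in *Serpinb2* and *Serpinb5*. The *Serpine2* window held neither motif. The windows were chr7:24462233-24462532 for *Plaur*, chr9:69453433-69453732 for *Anxa2*, chr1:107511173-107511472 for *Serpinb2* and chr1:106860925-106861224 for *Serpinb5*, all on the plus strand. A match describes the letters in a window and is not a bound site, and *Serpinb5*, which holds one, was not called in any group.
Plaur: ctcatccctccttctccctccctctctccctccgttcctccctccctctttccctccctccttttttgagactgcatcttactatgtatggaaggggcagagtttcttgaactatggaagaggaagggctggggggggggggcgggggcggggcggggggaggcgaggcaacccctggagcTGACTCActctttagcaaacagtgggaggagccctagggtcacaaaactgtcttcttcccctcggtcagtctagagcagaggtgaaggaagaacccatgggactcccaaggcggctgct
Anxa2: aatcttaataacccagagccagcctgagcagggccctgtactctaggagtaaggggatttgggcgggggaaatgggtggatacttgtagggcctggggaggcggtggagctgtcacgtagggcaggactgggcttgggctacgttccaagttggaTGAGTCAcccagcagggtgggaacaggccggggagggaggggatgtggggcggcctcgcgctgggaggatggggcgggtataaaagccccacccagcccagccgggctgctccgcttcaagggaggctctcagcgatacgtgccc
Serpinb2: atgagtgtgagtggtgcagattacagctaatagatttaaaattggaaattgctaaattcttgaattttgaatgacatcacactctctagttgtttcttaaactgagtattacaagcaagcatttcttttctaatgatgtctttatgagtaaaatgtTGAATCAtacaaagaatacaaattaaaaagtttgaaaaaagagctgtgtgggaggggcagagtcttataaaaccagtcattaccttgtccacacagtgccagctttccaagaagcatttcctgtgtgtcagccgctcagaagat
Serpinb5: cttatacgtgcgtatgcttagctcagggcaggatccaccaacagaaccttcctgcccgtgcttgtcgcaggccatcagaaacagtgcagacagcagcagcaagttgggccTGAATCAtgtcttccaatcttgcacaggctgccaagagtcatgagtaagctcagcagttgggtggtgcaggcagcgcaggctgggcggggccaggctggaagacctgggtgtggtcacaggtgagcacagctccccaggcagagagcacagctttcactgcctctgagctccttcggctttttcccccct

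**Figure D1:**
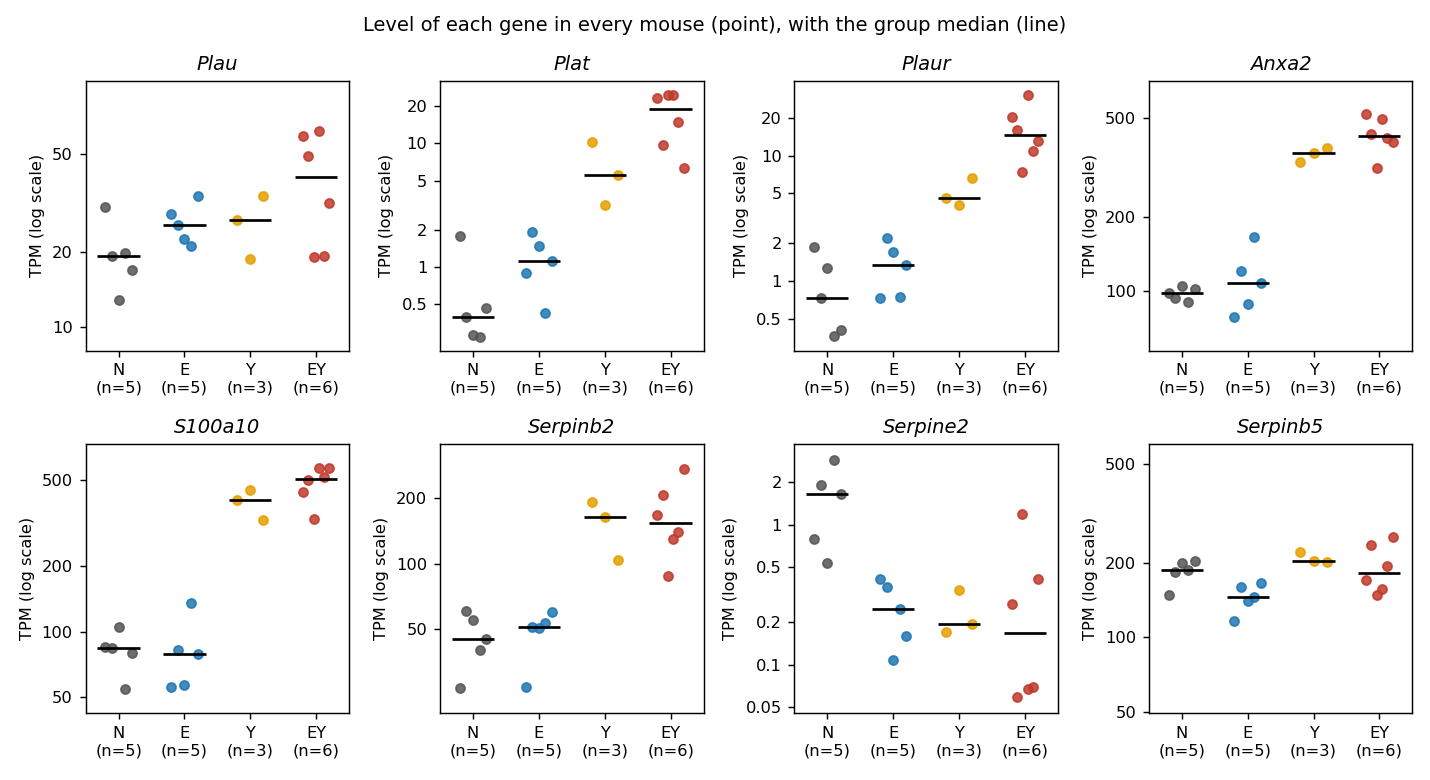
Level of each of the 8 genes (TPM, log scale) in every mouse, with points for mice, lines for group medians and groups N, E, Y and EY on the horizontal axis. *Plaur*, *Plat*, *Anxa2*, *S100a10* and *Serpinb2* are higher in every Y and EY mouse than in every N mouse, *Serpine2* is lower in every E and Y mouse than in every N mouse, and *Plau* and *Serpinb5* in E, Y and EY overlap with N.

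*Anxa2* encodes annexin A2, a membrane-binding protein that holds plasminogen and tissue activator at the cell surface. It was at 98.1, 93.6, 105, 90.2 and 102 TPM in N mice 1 to 5, and at 78.4, 121, 88.9, 166 and 108 TPM in E mice 1 to 5. The Y mice had 331, 363 and 379 TPM, and the EY mice between 314 and 518 TPM with a median of 424 TPM. The N mice lay close together, E mouse 4 was the highest of the N and E mice, and all Y and EY mice were far above these with ranges that overlapped. *Anxa2* rose by 2.12 in EY (SE 0.16, 95% interval 1.78 to 2.45, limma adjusted p = 1.50e-08) and by 1.87 in Y epithelia (SE 0.19, adjusted p = 7.30e-06). The E epithelia differed by 0.15 (SE 0.17, adjusted p = 0.762). An annotated gene on the opposite strand, *Gm16144*, overlaps *Anxa2* and had means of 8.86, 13.6, 19.3 and 24.4 TPM in N, E, Y and EY. Whether reads were counted by strand is not given in the sources used here, so that reads of this pair cannot be told apart.

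*S100a10* encodes the light chain of the annexin A2 complex, which binds plasminogen through its carboxyl end and is stabilized by annexin A2. N mice 1 to 5 had 84.9, 83.8, 105, 54.6 and 79.5 TPM, and E mice 1 to 5 had 55.6, 82.0, 56.5, 136 and 78.6 TPM. Y mice had 404, 447 and 325 TPM, and EY mice ranged from 329 to 564 TPM with a median of 507 TPM. Here too E mouse 4 was the highest of the N and E mice, and the Y and EY mice overlapped each other but none of the others. *S100a10* rose by 2.58 in EY (SE 0.22, 95% interval 2.12 to 3.04, limma adjusted p = 5.98e-08) and by 2.28 in Y epithelia (SE 0.26, adjusted p = 2.35e-05), and E differed by -0.05 (SE 0.23, adjusted p = 0.968). From Y to EY the differences were 0.25 for *Anxa2* (SE 0.18, limma adjusted p = 0.446) and 0.30 for *S100a10* (SE 0.25, adjusted p = 0.519), with 95% intervals of -0.14 to 0.64 and -0.24 to 0.83. Both genes were called in EY and in Y under every alternative setting and without any single mouse.

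*Serpinb2* encodes plasminogen activator inhibitor type 2, which inhibits urokinase and tissue activator and stays largely inside keratinocytes. It was at 26.9, 61.0, 55.5, 40.1 and 45.3 TPM in N mice 1 to 5, and at 27.4, 51.3, 50.9, 53.6 and 60.1 TPM in E mice 1 to 5. Y mice had 190, 163 and 104 TPM, and EY mice between 87.7 and 271 TPM with a median of 153 TPM. Every Y and EY mouse was above every N and E mouse, and the Y values lay inside the EY range. *Serpinb2* rose by 1.83 in EY (SE 0.28, 95% interval 1.23 to 2.43, limma adjusted p = 4.86e-05) and by 1.74 in Y epithelia (SE 0.34, adjusted p = 0.00212), and differed by 0.10 in E (SE 0.30, adjusted p = 0.941). The call in Y was lost without Y mouse 1 (1.56, adjusted p = 0.0152) or Y mouse 2 (1.67, adjusted p = 0.0125), after quantile normalization (1.40, adjusted p = 0.0131), with the 3 N mice that have both regulatory transgenes (1.71, adjusted p = 0.0146) and with the N and Y mice alone (adjusted p = 0.0131). Exons of *Serpinb2* overlap the annotation of *Serpinb10* on the same strand, which makes its level uncertain to that extent.

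*Serpine2* encodes protease nexin 1, a secreted inhibitor of thrombin, urokinase and plasmin. Levels were low, at 0.783, 1.92, 0.535, 2.90 and 1.64 TPM in N mice 1 to 5 and at 0.409, 0.358, 0.108, 0.250 and 0.159 TPM in E mice 1 to 5. The Y mice had 0.172, 0.341 and 0.195 TPM, and the EY mice between 0.0584 and 1.19 TPM with a median of 0.169 TPM. All E and Y mice were below all N mice, as were 5 of the 6 EY mice, while EY mouse 3 at 1.19 TPM was above N mice 1 and 3. *Serpine2* fell by 2.15 in EY epithelia (SE 0.53, 95% interval -3.27 to -1.03, limma adjusted p = 0.00316). The differences in Y (-2.12, SE 0.64, adjusted p = 0.0309) and E (-2.08, SE 0.55, adjusted p = 0.0468) were as large and were not calls. If the E and Y differences are added, EY departed from the total by 2.04 (SE 0.83, unadjusted p = 0.0253, limma adjusted p = 0.284). With 0.1 TPM added to each value, that total lies below the level of a gene at 0 TPM. A departure above 0 was thus fixed in advance and is not read as a result. The call in EY was lost without N mouse 4 (-1.89, adjusted p = 0.0120), with the 3 N mice that have both regulatory transgenes (-1.70, adjusted p = 0.0425), with the N and EY mice alone (adjusted p = 0.0174) and with a pseudocount of 1 TPM (-0.90). It was also lost with the mouse number as a block (-2.29, limma adjusted p = 0.0123).

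*Serpinb5* encodes maspin, a clade B serpin of epithelial cells that is not an inhibitor of proteases in the usual sense. N mice 1 to 5 had 148, 184, 199, 187 and 203 TPM, and E mice 1 to 5 had 117, 159, 140, 146 and 165 TPM. Y mice had 221, 203 and 202 TPM, and EY mice ranged from 148 to 255 TPM with a median of 182 TPM. All groups overlapped the N range, 3 of 5 E mice lay below it, EY mouse 3 lay just below it, and Y mouse 1, at 221 TPM, and EY mice 2 and 6, at 236 and 255 TPM, lay above it. The difference in EY was 0.05 (SE 0.14, 95% interval -0.24 to 0.34, limma adjusted p = 0.823), and its sign turned after median-of-ratios scaling (-0.33), quantile normalization (-0.21) and in limma-voom on reads (-0.12). In Y the difference was 0.19 (SE 0.17, limma adjusted p = 0.510). It turned to -0.01 after median-of-ratios scaling and -0.11 after quantile normalization, and was 0.09 in limma-voom. In E the difference was -0.34 (SE 0.14, adjusted p = 0.258).

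Across all genes tested the median log2 fold change of EY against N was 0.33, and it was 0.01 after median-of-ratios scaling, while the share of called genes that were higher moved from 68.8% to 43.8%. The medians moved from 0.13 to -0.03 in Y and from 0.07 to -0.02 in E, and in Y the higher share moved from 75.8% to 57.2%. That share moved from 53.5% to 30.3% between EY and Y, from 61.1% to 38.9% between EY and E and from 67.5% to 56.1% between Y and E. Every change is thus to be read relative to these shifts. Under that scaling *Plat* differed in EY by 4.34, *Plaur* by 3.72, *S100a10* by 2.20, *Anxa2* by 1.74, *Serpinb2* by 1.45, *Plau* by 0.52 and *Serpine2* by -2.44. These 7 genes kept their sign in EY under both scalings and in limma-voom, and *Serpinb5* did not.

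**Figure D2:**
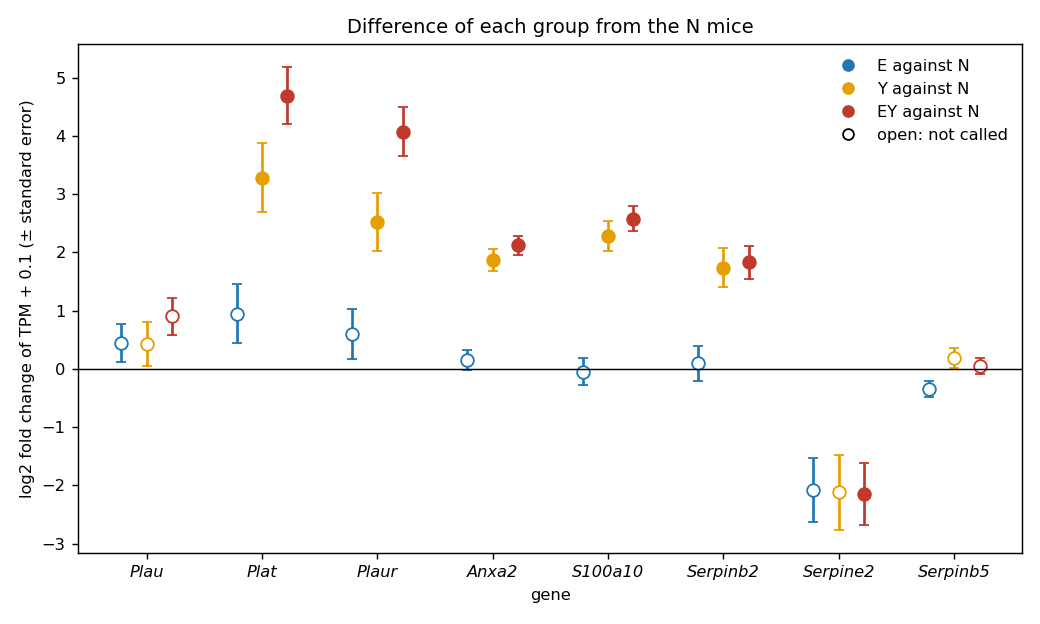
Log2 fold change of TPM + 0.1 (± SE) of each of the 8 genes in E (n = 5), Y (n = 3) and EY (n = 6) against N (n = 5), with filled points for calls. *Plat*, *Plaur*, *S100a10*, *Anxa2* and *Serpinb2* rose in Y and EY, and *Serpine2* lies between -2.15 and -2.08 in all groups and fell in EY. *Serpinb5* lies near 0 in EY and Y, with a sign that turns under other scalings, and at -0.34 in E, not a call.

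In EY epithelia 5 of the 8 genes rose, where 12.6% of all genes tested were called higher, and 1 fell, where 5.71% were called lower. The median log2 fold change was 1.97 over the 8 genes and 0.33 over all genes tested. The mice of EY and N did not overlap for 5 of the 8 genes, against 27.4% of all genes. In Y epithelia 5 of the 8 genes rose, where 3.47% of all genes were called higher, and 0 fell in limma, where 1.11% of all genes were called lower; 6 genes had an unadjusted p under 0.05 and limma-voom called 5. The median was 1.80 against 0.13 over all genes, and Y and N mice did not overlap for 6 of the 8 genes, against 21.1% of all genes. Both counts of higher genes lay far above the share over all genes, while the 1 lower gene in EY was *Serpine2*. The members were chosen with earlier results of these data known, so that this excess may in part restate the choice.

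In E epithelia limma called 0 of the 8 genes, where 1.20% of all genes were called in either direction, and limma-voom also called 0. *Serpine2* and *Serpinb5* were the 2 genes with an unadjusted p under 0.05. The median of the 8 genes was 0.12, near the 0.07 of all genes, and E and N mice did not overlap for 1 gene, *Serpine2*, against 4.57% of all genes. With so few genes expected at that background, a count of 0 does not set the 8 genes apart from the rest, and it does not show that they were unchanged.

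Between EY and E epithelia 5 of the 8 genes were higher, where 7.82% of all genes were called higher, and 0 were lower in limma and limma-voom, where 4.99% were, with 6 genes at an unadjusted p under 0.05. The higher genes were *Plat* (3.74), *Plaur* (3.47), *S100a10* (2.62), *Anxa2* (1.96) and *Serpinb2* (1.73). Between Y and E 3 genes were higher, *S100a10* (2.33), *Anxa2* (1.72) and *Serpinb2* (1.64), where 1.67% of all genes were. No gene was lower in Y than in E by limma or limma-voom, where 0.805% of all genes were, and 6 genes had an unadjusted p under 0.05. *Plat* (2.32, limma adjusted p = 0.0176) and *Plaur* (1.92, adjusted p = 0.0209) were above E in every Y mouse without being calls, as was *Serpinb5* (0.53, adjusted p = 0.0530), and *Plat* was called without N mouse 1 (adjusted p = 0.00775). The call of *Serpinb2* between Y and E was lost without E mouse 1 (1.45, adjusted p = 0.0129), E mouse 3 (1.67, adjusted p = 0.0105), Y mouse 1 (1.46, adjusted p = 0.0302) or Y mouse 2 (1.57, adjusted p = 0.0280). It was also lost after quantile normalization (1.44, adjusted p = 0.0147), with the 3 N mice that have both regulatory transgenes (adjusted p = 0.0105) and with the Y and E mice alone (adjusted p = 0.0225). The call of *Anxa2* between Y and E was lost with the Y and E mice alone (adjusted p = 0.0103).

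Between EY and Y limma called 0 of the 8 genes, as did limma-voom, where 2.00% of all genes were called in either direction. *Plaur* and *Plat* were the 2 genes with an unadjusted p under 0.05. The test of whether EY departs from the E and Y differences added together called 0 of the 8 genes in limma and limma-voom, where it called 0.176% of all genes, and 1 gene, *Serpine2*, had an unadjusted p under 0.05. The direction of that departure of *Serpine2* was fixed by the floor of the scale, as given above. For *Plaur* this departure was 0.95 (SE 0.65, adjusted p = 0.554) and for *Plat* 0.46 (SE 0.76, adjusted p = 0.836), errors that leave room for departures of more than 1 in either gene.

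Ratios of 2 genes were taken within each mouse, which removes most of the effect of scaling. For each of 3 pairs the log2 ratio was compared in 4 pairs of groups by two-sided exact permutation tests, with p adjusted over the 12 tests and 0.05 as the limit. The tests used TPM + 0.1, which draws the ratios of low genes toward 1, while the ratios printed for each mouse are of TPM alone. The ratio of receptor to ligand, *Plaur* to *Plau* in TPM, was 0.0608, 0.0384, 0.0997, 0.0184 and 0.0242 in N mice 1 to 5 and 0.0256, 0.0859, 0.0752, 0.0350 and 0.0401 in E mice 1 to 5. In the Y mice it was 0.170, 0.216 and 0.194, and in the EY mice it ranged from 0.324 to 0.559 with a median of 0.401. The N and E mice overlapped, the Y mice lay above them, and the EY mice lay above the Y mice. The log2 ratio was higher than in N by 3.17 in EY (exact permutation p = 0.00433, adjusted p = 0.0260), or by 3.36 without the pseudocount. It did not pass 0.05 with the 3 N mice that have both regulatory transgenes (2.64, exact permutation adjusted p = 0.0952) or without any 1 N mouse (exact permutation adjusted p = 0.0571), where fewer mice limit the p. It was higher by 2.09 in Y (exact permutation p = 0.0357, the smallest 3 against 5 mice can give, adjusted p = 0.0714) and by 0.15 in E (exact permutation p = 0.770, adjusted p = 0.840). From Y to EY the ratio differed by 1.08 (exact permutation p = 0.0238, adjusted p = 0.0714), in the same direction in 6 of 6 EY mice.

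The ratio of the activators, *Plau* to *Plat*, was 17.1, 48.6, 45.8, 72.3 and 36.6 in N mice 1 to 5 and 32.0, 13.3, 15.5, 50.0 and 30.0 in E mice 1 to 5. In Y mice it was 2.61, 5.90 and 6.15, and in EY mice it ranged from 0.781 to 5.09 with a median of 2.52. EY mouse 3 was the only mouse with more *Plat* than *Plau* in TPM, and the Y and EY mice overlapped each other but not the N or E mice. The log2 ratio fell by 3.79 in EY (exact permutation p = 0.00433, adjusted p = 0.0260), and the difference was -4.09 without the pseudocount. With the 3 N mice (-3.58, exact permutation adjusted p = 0.0952) or without any 1 N mouse (exact permutation adjusted p = 0.0571) it did not pass 0.05 either. Differences were -2.84 in Y (exact permutation p = 0.0357, adjusted p = 0.0714), -0.51 in E (exact permutation p = 0.230, adjusted p = 0.276) and, from Y to EY, -0.95 (exact permutation p = 0.119, adjusted p = 0.204).

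The ratio of the subunits, *S100a10* to *Anxa2*, was 0.865, 0.895, 0.999, 0.605 and 0.775 in N mice 1 to 5 and 0.709, 0.678, 0.635, 0.822 and 0.726 in E mice 1 to 5. In Y mice it was 1.22, 1.23 and 0.857, and in EY mice it ranged from 0.847 to 1.41 with a median of 1.15. Every Y and EY mouse was above every E mouse and the other groups overlapped, with 5 of 6 EY mice above every N mouse and EY mouse 1 below N mice 1 to 3. The log2 ratio differed from N by 0.46 in EY (exact permutation p = 0.0216, adjusted p = 0.0714), by 0.41 in Y (exact permutation p = 0.143, adjusted p = 0.214) and by -0.20 in E (exact permutation p = 0.175, adjusted p = 0.233). From Y to EY it differed by 0.05 (exact permutation p = 0.857, adjusted p = 0.857). None of the 4 differences passed 0.05 after adjustment, and the one in EY did without EY mouse 1 (0.55, exact permutation adjusted p = 0.0317).

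**Figure D3:**
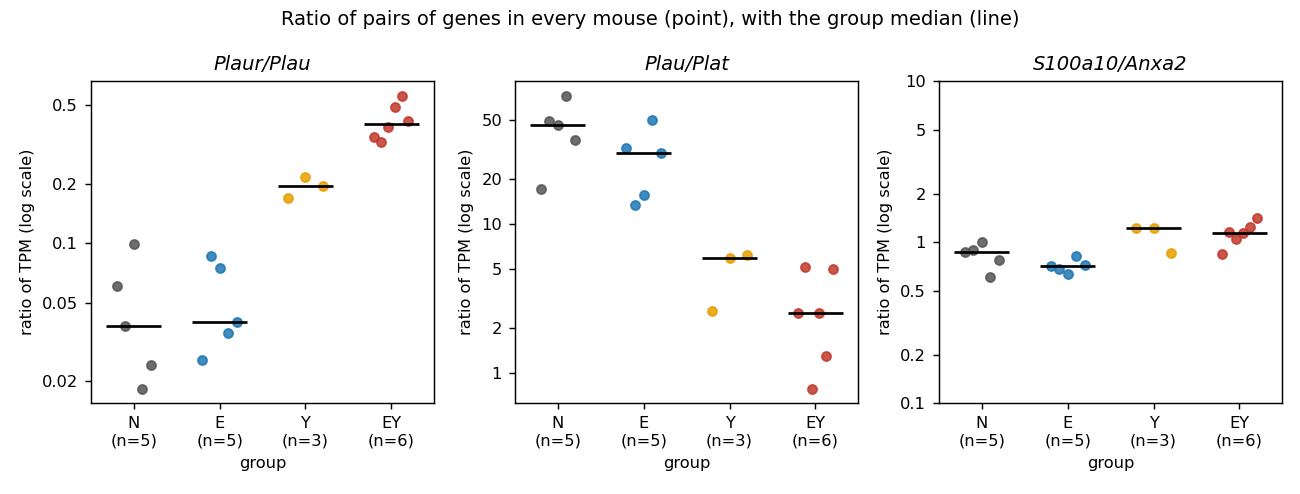
Ratio in TPM (log scale) of *Plaur* to *Plau*, *Plau* to *Plat* and *S100a10* to *Anxa2* in every mouse (points) with group medians (lines) for N (n = 5), E (n = 5), Y (n = 3) and EY (n = 6). The median of *Plaur* to *Plau* goes from 0.0384 in N to 0.401 in EY and that of *Plau* to *Plat* from 45.8 to 2.52, while *S100a10* to *Anxa2* stays between 0.605 and 1.41 in all mice.

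The EY mice differed among themselves in which genes were high. EY mouse 4 was the highest for *Plau* (61.5 TPM) and *Plaur* (30.1 TPM), and EY mouse 6 for *Serpinb2* (271 TPM) and *Serpinb5* (255 TPM). EY mouse 3 was the lowest of the 6 for *Plau*, *Plaur*, *Anxa2*, *S100a10*, *Serpinb2* and *Serpinb5* and the highest for *Plat* and *Serpine2*. All 28 pairs of the 8 genes were correlated over the 6 EY mice on the log2 scale, after the values had been seen, with exact permutation p adjusted over the 28. The order of the mice was the same for *Plau* and *Plaur* (Spearman's rho 1.00, exact permutation p = 0.00278, the smallest possible, adjusted p = 0.0389; Pearson's r 0.92, exact permutation p = 0.00417, adjusted p = 0.0583). Without EY mice 3 and 5, the farthest from the median of *Plau*, r was 0.85. Genes outside the 8 could run in a similar order, such as *Eno1*, at 971, 673, 463, 801, 464 and 658 TPM in EY mice 1 to 6. How common such an order is over all genes was not tested, so that it is not read as particular to this pair. For *Plat* and *Serpinb5* the order was reversed (rho -1, exact permutation p = 0.00278, adjusted p = 0.0389; r -0.98, exact permutation p = 0.00139, adjusted p = 0.0389), and r was -0.91 without EY mice 6 and 2. In the other 26 pairs the adjusted exact permutation p was at least 0.117 for both measures.

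**Figure D4:**
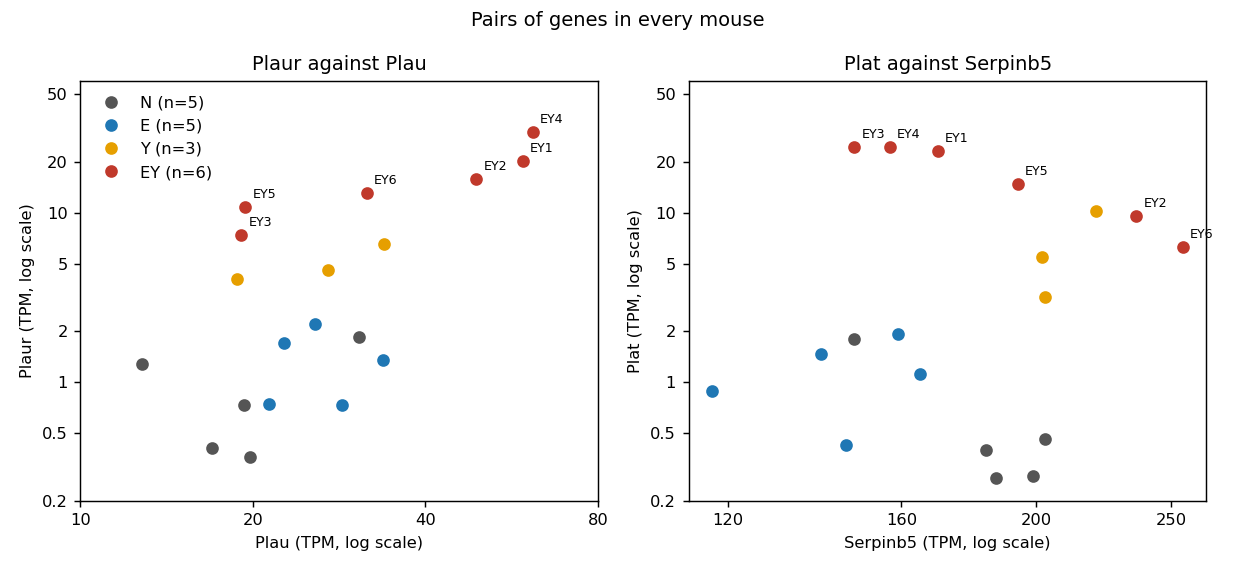
*Plaur* against *Plau* and *Plat* against *Serpinb5* in every mouse (TPM, log scales), colored by group, with the 6 EY mice named. Within EY the mice with more *Plau* had more *Plaur* (rho 1.00), and those with more *Serpinb5* had less *Plat* (rho -1). How common such orders are over all genes was not tested.

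Cell type markers were read beside these values, as lists whose part in the results was not tested. Of 7 neutrophil markers limma called 4 higher in EY (*S100a8*, *S100a9*, *Ly6g* and *Mmp8*) and 2 in Y (*S100a8* and *S100a9*), with limma calling 0 in E, as did limma-voom, where 0 had an unadjusted p under 0.05. *Ly6g* passed the filter only through EY mice, so that its call sets EY against 0 and is not read as a rise. Their summed level was 8.33 to 78.2 TPM in N, 5.87 to 86.0 TPM in E, and 770, 961 and 545 TPM in Y mice 1 to 3. In EY mice 1 to 6 the sum was 801, 611, 668, 1041, 280 and 83.9 TPM. *S100a8* was the most abundant marker, a gene that keratinocytes can also express, and *Ly6g* had a mean of 0.972 TPM in EY, with no N, E or Y mouse above 0. EY mouse 4 had the highest sum, the highest *Ly6g* (2.31 TPM) and the highest *Plaur* (30.1 TPM), and EY mouse 1 was next in sum and *Plaur* (20.3 TPM). EY mouse 3, which came after it in sum, had the lowest *Plaur* (7.41 TPM) and the highest *Plat* (24.5 TPM), and EY mouse 5 had the next highest *Ly6g* after mouse 4 (1.36 TPM) and the next lowest *Plaur* after mouse 3 (10.8 TPM). EY mouse 6 had the lowest sum, *Ly6g* at 0, the lowest *Plat* of the EY mice (6.31 TPM) and *Plaur* at 13.1 TPM. The part of neutrophils in the values of *Plaur* and *Plat* was not tested. In the 3 Y mice *Ly6g* was at 0, but *S100a8* and *S100a9* rose and *Retnlg* was at 10.8, 0 and 21.2 TPM in Y mice 1 to 3, against at most 2.68 TPM in N and E mice. *Retnlg* was not called in Y (3.23, SE 2.04, limma adjusted p = 0.325) or in EY (5.49, adjusted p = 0.0143).

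Of 6 skeletal muscle markers limma and limma-voom called 0 in EY, Y and E, and 0 had an unadjusted p under 0.05 in any of these. All 6 were nevertheless higher in EY than in N on average, by 1.29 to 1.95 with a median of 1.77. At an unadjusted p under 0.05 were 5 of the 6 between EY and E (median 2.27) and 4 between EY and Y (median 2.62), where limma and limma-voom called 0, and the part of muscle RNA in the members' differences was not tested. Their sum was 182, 69.2, 1199, 32.6, 205 and 135 TPM in EY mice 1 to 6, with *Acta1* the most abundant, and 7.20 to 228 TPM in the other groups. EY mouse 3, with the most muscle RNA, was the mouse with the highest *Serpine2* and the lowest *Plaur* of the EY group, while every other EY mouse had at least 10.8 TPM of *Plaur*. Without any single mouse the EY difference of *Plaur* was between 3.84 and 4.36 and stayed a call. Of 6 fibroblast markers 1 fell in EY, *Dcn*, by 2.36 (SE 0.43, limma adjusted p = 0.000249), from a mean of 61.4 to 13.8 TPM. Limma called 0 fibroblast markers in Y and E; 1 and 0 had an unadjusted p under 0.05, and limma-voom called 1 and 0. The fibroblast sum was 293, 204, 86.3, 73.9 and 61.5 TPM in N mice 1 to 5, 57.2 to 104 TPM in E, 23.8 to 44.1 TPM in Y and 24.2 to 153 TPM in EY. The other 5 fibroblast markers were not called in EY, with differences from 0.32 for *Col1a1* to 1.08 for *Pdgfra*, and *Col1a1* (-0.05 and -0.08) and *Col1a2* (-0.04 and -0.05) turned sign after median-of-ratios and quantile scaling. In Y all 6 were lower on average, with a median of -1.58, and 1 was called without EY mouse 3. The fall of *Dcn* was thus not shared by the other 5 in EY.

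Of 6 basal keratinocyte markers *Krt14* rose in EY, by 1.43 (SE 0.28, limma adjusted p = 0.000402), and *Krt15* fell by 1.27 (SE 0.31, adjusted p = 0.00281), and the sum went from a mean of 11026 TPM in N to 23590 TPM. In Y limma called 0 of them, with 3 at an unadjusted p under 0.05 and 1 called by limma-voom, and their sum was 22529 TPM. The count of 2 calls in EY became 4 without N mouse 1, EY mouse 3 or EY mouse 5, 3 without N mouse 2 or EY mouse 4, and 1 with the 3 N mice that have both regulatory transgenes or with the mouse number as a block. In Y it became 1 without N mouse 1 or EY mouse 1, 3 or 5. Of 6 suprabasal markers 4 fell in EY (*Krt1*, *Krt4*, *Krt10* and *Krt13*) and 1 in Y (*Krt10*), and the mean sum went from 104274 TPM in N to 63047 TPM in Y and 32397 TPM in EY. The call of *Krt10* in Y was lost without Y mouse 3 and with the 3 N mice that have both regulatory transgenes. In E limma and limma-voom called 0 basal and 0 suprabasal markers, and 0 had an unadjusted p under 0.05. These shifts ran beside the rise of the 5 members in Y and EY, and their part in it was not tested.

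The remaining lists had 0 or 1 call. Of 6 monocyte and macrophage markers limma and limma-voom called 0 in EY, Y and E, with 2, 1 and 0 at an unadjusted p under 0.05. The count in EY became 3 without N mouse 1, where *Lyz2* was at 557 TPM against at most 197 TPM in the other N mice, and 2 at an adjusted p below 0.05, and the count in Y became 1 without E mouse 4. Of 5 T cell markers 1 was called in EY, *Cd3d*, and the sum reached at most 7.84 TPM in any mouse. The count was 0 without N mouse 4, with a pseudocount of 1 TPM, with the 3 N mice or with the block, 2 without N mouse 5, E mouse 4 or E mouse 5 or with the N and EY mice alone, and 3 at an adjusted p below 0.05. Of 5 tested endothelial markers 1 was called in EY, *Tie1*, with a sum of at most 5.64 TPM, and it was not called after median-of-ratios or quantile scaling, with a pseudocount of 1 TPM, with the 3 N mice, with the N and EY mice alone or without N mouse 4 or 5 or EY mouse 1, 2 or 3. Limma and limma-voom called 0 of the T cell and endothelial markers in Y and E, and 0 had an unadjusted p under 0.05. Of 4 Schwann cell markers limma and limma-voom called 0 in EY, Y and E, with 0, 3 and 1 at an unadjusted p under 0.05.

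The wider system held 20 other genes of plasminogen activation and its control, of which 16 were listed and 14 tested. In EY 1 of the 14 rose and 0 fell in limma and limma-voom, with 5 at an unadjusted p under 0.05, and the median was 0.37 against 0.33 over all genes. The gene that rose was *Eno1*, a glycolytic enzyme that can also bind plasminogen at the cell surface, from a mean of 188 to 672 TPM (1.80, SE 0.18, limma adjusted p = 4.26e-07). *Eno1* also rose in Y (1.32, SE 0.22, adjusted p = 0.000512), where it was again the 1 call, limma-voom called 2 and the median was -0.01. In E limma and limma-voom called 0 of the 14, with 2 at an unadjusted p under 0.05. *St14*, the membrane protease matriptase, differed by 0.75 in EY (SE 0.16, adjusted p = 0.00106), below the limit on the fold change. *Plg*, *Serpina5*, *Cpb2* and *F12* were not among the genes listed and could not be tested, and *Serpini1* and *Hgf* did not pass the filter.

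*Serpinb2* and *Serpinb5* lie on chromosome 1 in a cluster of clade B serpins, inhibitors without a signal peptide that are common in keratinocytes. Of 16 other clade B serpins tested, 6 rose, 8 fell and 2 were not called in EY, with a median of -1.21 against 0.33 over all genes. In the RefSeq order of genes the cluster runs from *Serpinb5* at one end through *Serpinb12*, *Serpinb13*, *Serpinb3a*, *Serpinb3d*, *Serpinb3b*, *Serpinb3c*, *Serpinb11* and *Serpinb7* to *Serpinb2*, and then to *Serpinb10* and *Serpinb8*. Split by chromosome, which was done after the values had been seen, 8 of the 9 others on chromosome 1 fell and none rose, while 6 of the 7 on chromosome 13 rose and none fell. *Serpinb2*, which rose, thus lies beside a row of 8 genes that fell. The largest in level was *Serpinb3a*, with means of 4261 TPM in N, 2047 TPM in E, 1185 TPM in Y and 291 TPM in EY, a fall of 4.11 in EY (that is, -4.11, SE 0.40, limma adjusted p = 3.12e-07). *Serpinb12* went from a mean of 1075 to 102 TPM (-3.67, SE 0.40, adjusted p = 1.09e-06). On chromosome 13 *Serpinb9b* rose by 3.32 (SE 0.57, adjusted p = 0.000141), from 0.263 to 4.08 TPM, and *Serpinb6a* by 1.64 (SE 0.19, adjusted p = 1.81e-06). *Serpinb9* (1.10) was not called under median-of-ratios, quantile or voom scaling, and *Serpinb8* (-0.91) then was, which gave 5 higher and 9 lower. The call of *Serpinb9* was also lost without N mouse 4 (0.94), with a pseudocount of 1 TPM (0.87) and with the 3 N mice that have both regulatory transgenes (0.90, adjusted p = 0.0193).

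The summed level of these 16 serpins was 4231, 5584, 6452, 7878 and 6239 TPM in N mice 1 to 5 and 2473, 3836, 3517, 1994 and 4215 TPM in E mice 1 to 5. It was 2042, 1666 and 1789 TPM in the Y mice and 300 to 861 TPM in the EY mice. All E, Y and EY mice lay below all N mice. In Y, *Serpinb13* (-2.52, SE 0.35, limma adjusted p = 0.000114) and *Serpinb3d* (-3.08, SE 0.67, adjusted p = 0.00441) were the 2 that fell, the median was -0.52, and limma-voom called 6. The call of *Serpinb3d* was lost without N mouse 4 (-2.98, adjusted p = 0.0118), Y mouse 1 (-2.44, adjusted p = 0.0352) or Y mouse 2 (-3.12, adjusted p = 0.0162). Without 1 mouse the count in Y was between 1 and 5. The call of *Serpinb3d* was also lost by limma-voom (adjusted p = 0.0138), with a pseudocount of 0.01 TPM (adjusted p = 0.0431), with the 3 N mice that have both regulatory transgenes (adjusted p = 0.0212) and with the N and Y mice alone (adjusted p = 0.0402). In E limma called 0 of the 16, limma-voom called 1 and 4 had an unadjusted p under 0.05, with a median of -0.39. Without E mouse 1 *Serpinb3c* was called in E (-2.85, adjusted p = 0.00826), against -2.54 (adjusted p = 0.0169) with it. *Serpinb3a* to *Serpinb3d* and the *Serpinb6* and *Serpinb9* genes are close copies of each other, and how reads were shared among them makes their single values uncertain.

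**Figure D5:**
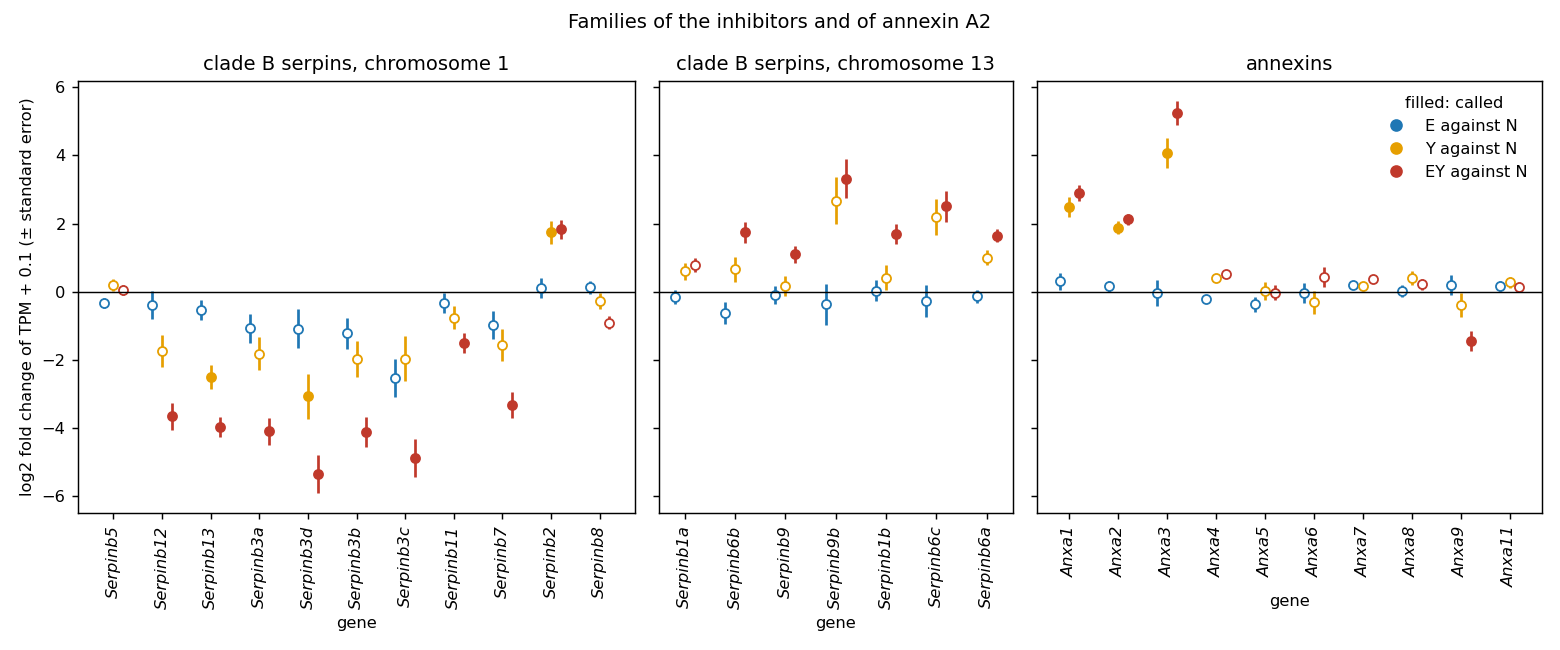
Log2 fold change of TPM + 0.1 (± SE) against N (n = 5) in E (n = 5), Y (n = 3) and EY (n = 6) for clade B serpins of chromosome 1 and of chromosome 13, in gene order, and for the annexins, with filled points for calls. On chromosome 1 *Serpinb2* rose beside 8 genes that fell in EY, on chromosome 13 6 of 7 genes rose, and among annexins *Anxa1*, *Anxa2* and *Anxa3* rose. *Serpinb9* lost its call and *Serpinb8* gained one under other scalings, and *Serpinb5*, *Anxa7*, *Anxa8* and *Anxa11* turned sign in EY under at least 1 of them.

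Of 9 other annexins tested, 2 rose and 1 fell in EY, with a median of 0.38 against 0.33 over all genes. *Anxa1*, an anti-inflammatory member, rose by 2.90 (SE 0.24, limma adjusted p = 5.07e-08), from a mean of 177 to 1329 TPM, and *Anxa3* by 5.25 (SE 0.36, adjusted p = 6.21e-09), from 0.913 to 36.1 TPM. *Anxa9* fell by 1.46 (SE 0.29, adjusted p = 0.000493). The same *Anxa1* (2.49, SE 0.29, adjusted p = 2.70e-05) and *Anxa3* (4.06, SE 0.44, adjusted p = 1.10e-05) rose in Y, where the median was 0.27. In E limma and limma-voom called 0 of the 9, 0 had an unadjusted p under 0.05, and the median was 0.01.

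The urokinase receptor has no part inside the cell and acts through partners such as integrins. Of 12 partner genes tested, *Itgb1* (1.39, SE 0.16, limma adjusted p = 2.26e-06), *Itga3* (1.26, SE 0.18, adjusted p = 2.07e-05) and *Itgb6* (1.06, SE 0.24, adjusted p = 0.00144) rose in EY. The median was 0.89 against 0.33 over all genes, and 12.6% of all genes were called higher. The calls of partners depended on the scaling, with 1 higher and 1 lower gene after median-of-ratios scaling and 0 higher and 1 lower after quantile normalization. Without N mouse 1 (0.96), EY mouse 1 (0.97) or EY mouse 4 (0.98) *Itgb6* was below the limit, its call was also lost with a pseudocount of 1 TPM (0.55) and with the 3 N mice that have both regulatory transgenes (1.02, adjusted p = 0.0131), and without EY mouse 3 the count was 5. In Y and E limma and limma-voom called 0 of the 12, with 7 and 1 at an unadjusted p under 0.05 and medians of 0.07 and 0.06.

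Genes of the immediate early and stress response, which dissociation of tissue can induce, were read as a further check. Of 12 tested, *Ier3* rose in EY (1.71, SE 0.16, limma adjusted p = 1.36e-07), and *Fos* (-1.87, SE 0.37, adjusted p = 0.000542), *Fosb* (-2.20, SE 0.40, adjusted p = 0.000235) and *Egr1* (-1.60, SE 0.23, adjusted p = 2.58e-05) fell. Other scalings gave 5 lower genes (median-of-ratios, voom) or 4 (quantile). The medians of the list were -0.46 (EY), -0.15 (Y) and 0.17 (E), and *Fos* was at a mean of 1084 TPM in N and 303 TPM in EY. In Y *Ier3* was the 1 call (1.37, SE 0.19, adjusted p = 0.000109), and in E limma and limma-voom called 0, with 1 at an unadjusted p under 0.05. The part of tissue handling in the members' values was not tested.

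The genes whose log2 levels ran most like those of each member over the 19 mice were named by Pearson's r among 15592 genes (15593 for *Serpine2*) with a mean of at least 1 TPM. The 19 mice share 4 groups, so that each r includes the differences between groups and is given as a description. *Anxa2* ran closest to *S100a11* (0.988), *S100a10* (0.984) and *Pgk1* (0.982), and *S100a10* to *Anxa2* (0.984), *S100a11* (0.978) and *Cav2* (0.977). *Plaur* ran closest to *Dusp3* (0.981), *Phgdh* (0.978) and *Nop56* (0.978). *Plat* ran closest to *Krt17* (0.967), *Slc16a3* (0.966) and *Hilpda* (0.963), of which *Krt17*, a keratin of wounded and hair follicle epithelium, went from a mean of 683 TPM in N to 5502 TPM in EY. For *Serpinb2* these were *Hsd17b7* (0.942), *Epgn* (0.939) and *Ola1* (0.937), where *Epgn* encodes epigen, a ligand of the EGF receptor. For *Plau* they were *Actb* (0.920), *Copg1* (0.895) and *Eif3g* (0.886). For *Serpinb5* they were *Dstn* (0.893), *Ubr3* (0.811) and *Wdr61* (0.810), and for *Serpine2* *Gm12207* (0.789), *Itfg1* (0.760) and *Dcn* (0.739). The 5 genes that rose in Y and EY thus had neighbors at 0.937 or above, and the closest gene to *Serpine2* was at 0.789.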

How the data were processed

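Tongue epithelium of 19 mice was sequenced as polyA RNA. Per the labels and the study's methods, the authors aligned reads with STAR 2.7.9 to GRCm39, used SAMtools 1.7, counted reads per gene with HTSeq 0.13.5, tested them with DESeq2 1.34.0 and deposited TPM for 24689 gene symbols. The conversion to TPM and the strand setting of the counting are not given in the sources used here. Whole reads were recovered for 24680 of 24680 genes above 0, within 0.01 of a read, and gave the depth of each mouse; 9 genes were at 0 throughout. Groups were taken from the labels, and nothing in them names a batch.

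Log2(TPM + 0.1) was fitted with limma 3.58.1 in R 4.3.3, with a trend and 1 model of 4 group means, for 22745 genes that reached 0.1 TPM in 3 or more mice. P values were adjusted by Benjamini-Hochberg over these genes, and calls needed an adjusted p below 0.01 and a log2 fold change beyond 1. Counts by limma-voom used the recovered reads. Two-sided exact permutation tests over mice served for the ratios. Correlations within EY were added after the data were seen. Python 3.11.15 with numpy 2.4.6, pandas 2.3.3, scipy 1.17.1 and matplotlib 3.10.9 was used. Named genes were the 8 members, genes of the lists of other plasminogen genes, clade B serpins, annexins, receptor partners, immediate early genes and cell type markers, and the 3 genes most like each member. Members and lists were chosen with earlier results of these data known. Values of 1 gene of the lists are not reported. Positions of promoters are on GRCm38.p6, an older build than that of the reads, and gene overlaps come from GENCODE vM21. The fit was repeated with a pseudocount of 1 or 0.01 TPM, with the filter raised to 1 TPM or lowered to any value above 0, after median-of-ratios or quantile scaling, with the 3 N mice that have both regulatory transgenes, on the mice of each comparison alone, with mouse number as block, at an adjusted p of 0.05, without the fold change limit, by limma-voom and without each mouse in turn, and the ratios were repeated without a pseudocount.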

Additional observations from a re-analysis of the deposited data

Results flagged for a closer look

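In 3 of 33 groups of values 1 mouse lay far from the others of its group, by the gap to its nearest neighbor over the range of the group, where chance gives about 1 in 20 groups. *Plat* was at 1.79 TPM in N mouse 1, against at most 0.464 TPM in the other N mice. *Serpine2* was at 1.19 TPM in EY mouse 3, against at most 0.406 TPM in the other EY mice. This was also the EY mouse with the highest sum of skeletal muscle markers, 1199 TPM. *Serpinb2* was at 27.4 TPM in E mouse 1, against at least 50.9 TPM in the other E mice. The reasons were not tested.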

How the results depend on the processing

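The number of members called was 5 or 6 in EY against N under all alternative settings and 5 to 7 without any 1 mouse. In Y against N it was 5, and fell to 2 with the 3 N mice that have both regulatory transgenes or with only the groups compared, and was 4 to 5 without any 1 mouse. In Y against E it was 3, but 1 with only the groups compared and 5 at an adjusted p below 0.05, and in E against N it was 1 at that threshold. Other plasminogen genes called in EY were 2 with the 3 N mice and 2 with no limit on the fold change. Members called in EY against Y and in the interaction were 0 under every alternative run; the interaction could not be fitted from only the groups compared.

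With the 3 N mice the log2 ratio in EY was 2.64 for *Plaur* to *Plau* and -3.58 for *Plau* to *Plat*, each with an exact permutation adjusted p of 0.0952, and *Plaur* to *Plau* in E was -0.38. Without 1 mouse *Plaur* to *Plau* ranged from 2.93 to 3.47 in EY and from -0.09 to 0.45 in E, *Plau* to *Plat* from -4.04 to -3.47 in EY, and *S100a10* to *Anxa2* from 0.36 to 0.55 in EY against N and from -0.12 to 0.14 in EY against Y. Without any 1 N mouse *Plaur* to *Plau* and *Plau* to *Plat* in EY had an exact permutation adjusted p of 0.0571, since fewer mice limit the p. Without EY mouse 1 *S100a10* to *Anxa2* in EY had 0.0317. Among differences of members from N, those that turned sign were *Serpinb2* in E (-0.02 after median-of-ratios scaling, -0.04 after quantile normalization, -0.08 to 0.29 without 1 mouse), *Serpinb5* in EY (-0.33, -0.21 and, by limma-voom, -0.12, and -0.04 to 0.12 without 1 mouse), *Serpinb5* in Y (-0.01 and -0.11) and *S100a10* in E (-0.25 to 0.07 without 1 mouse). Between other groups and in the interaction, differences near 0 of *Plau*, *Anxa2*, *Serpinb2* and *Serpine2* turned sign as well, such as *Serpinb2* in EY against Y (0.09, and -0.09 after median-of-ratios scaling) and *Serpine2* without 1 mouse (-0.48 to 0.13 in EY against E, -0.44 to 0.18 in EY against Y). None of these differences was a call. The cause was not tested.

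Mice with the same number in different groups did not deviate together (mean r 0.0157 over 24 pairs, -0.0426 to 0.0764, against -0.00345 for other pairs), so the numbers gave no sign of pairing. Other relations between the mice, such as shared litters, were not tested. With the number as a block, 3989 genes were called in EY in place of 4157, members called were 5 in EY and 4 in Y, *Plaur* in Y was 2.33 (limma adjusted p = 0.0201), *Serpine2* in EY -2.29 (adjusted p = 0.0123) and *Serpinb5* in EY -0.04.

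Depth limits *Serpine2*, *Plat* and *Plaur* most, with as few as 7 to 11 reads in a mouse. The Y group has 3 mice, and its calls of *Plat*, *Plaur* and *Serpinb2* depend on settings or single mice. Of the 5 N mice 2 lack a regulatory transgene that the others carry. EY epithelia can hold lesions and other cells, which bulk RNA does not separate.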
